A study of Caenorhabditis elegans with 2 samples.

Results

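Distal intergenic peaks are the binding regions of UNC-55 that lie away from protein-coding genes. A peak was taken as distal when its summit fell outside every protein-coding gene, outside windows running from 1000 bp upstream to 200 bp downstream of their transcript starts, and not within 1000 bp of a gene's 3′ end. The set that the authors kept by irreproducible discovery rate (IDR), which scores the repeatability of peak ranks, held 2511 peaks, of which 639 were distal (25.4%, 95% Wilson interval 23.8 to 27.2). The other summits fell in promoter windows (1225 peaks), introns (471), the 3′ zone (142) or exons (34). All intervals below are at the 95% level and cover counting error over peaks only, since peaks are not replicates of a condition.

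The peaks come from ChIP-seq on whole late embryos of Caenorhabditis elegans, of both sexes, in the strain NC1639. This strain carries the integrated array wdIs49, in which the ttr-39 promoter drives UNC-55a joined to GFP, with dpy-20+ as the marker. There were 2 biological replicates in 1 group, and no untreated or untagged group was analysed here. Their lists held 3577 regions for replicate 1 and 30000 for replicate 2, and depth is unknown because no read counts were given. The tag is labelled GFP in the genotype, while a note calls it GFP-FLAG. The antibody is labelled as unc-55, and it is not stated if it took the tag or the receptor, so native UNC-55 may be among the protein pulled down. Which cells the peaks come from is unknown, since the promoter limits the fusion to some cells of a whole embryo.

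UNC-55 belongs to the COUP-TF family of nuclear receptors. In the VD motor neurons of the worm it keeps synapses from being remodelled in the way that the related DD neurons remodel theirs, and receptors of this family can recognise the half-site AGGTCA. Genes of C. elegans lie close together, and most known control sequence sits just upstream of a start or in a long intron. Long stretches between genes are more common around developmental regulators, where distant enhancers have been described.

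The sequences of 8 of the 12 strongest distal peaks are shown first, chosen to set summits that hold the motifs counted further on beside strong summits that hold none. Each is the 151 bp centred on the summit, on the + strand of ce11 (WBcel235), and is named by the gene with the nearest transcript start. Capitals mark 3 motifs on either strand, which are GAGAGA (reverse TCTCTC), then ACGCAG (reverse CTGCGT) and TGACAG (reverse CTGTCA). They lie at chrII:10851247-10851397, chrIV:11068467-11068617, chrX:1093223-1093373, chrX:10766166-10766316, chrIV:15570881-15571031, chrIV:10065306-10065456, chrV:4491389-4491539 and chrII:6823336-6823486, in the order printed.
M106.2: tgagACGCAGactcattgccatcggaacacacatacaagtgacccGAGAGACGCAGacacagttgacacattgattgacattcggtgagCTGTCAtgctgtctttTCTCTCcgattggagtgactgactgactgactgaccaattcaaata
ttr-17: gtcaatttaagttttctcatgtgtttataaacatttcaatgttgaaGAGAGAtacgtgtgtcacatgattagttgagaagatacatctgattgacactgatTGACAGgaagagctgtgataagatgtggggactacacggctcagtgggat
pigx-1: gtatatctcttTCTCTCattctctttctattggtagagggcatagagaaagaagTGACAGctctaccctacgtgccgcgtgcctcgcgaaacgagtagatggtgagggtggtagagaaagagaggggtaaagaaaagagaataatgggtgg
sma-9: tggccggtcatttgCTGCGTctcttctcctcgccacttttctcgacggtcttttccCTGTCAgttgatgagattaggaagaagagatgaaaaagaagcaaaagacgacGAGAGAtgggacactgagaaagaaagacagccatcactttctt
Y105C5A.1: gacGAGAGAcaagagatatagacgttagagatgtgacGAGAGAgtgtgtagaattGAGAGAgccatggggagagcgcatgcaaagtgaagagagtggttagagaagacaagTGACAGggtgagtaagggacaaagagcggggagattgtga
cwn-2: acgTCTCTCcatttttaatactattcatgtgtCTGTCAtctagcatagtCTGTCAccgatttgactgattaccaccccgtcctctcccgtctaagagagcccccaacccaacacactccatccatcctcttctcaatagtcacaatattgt
unc-62: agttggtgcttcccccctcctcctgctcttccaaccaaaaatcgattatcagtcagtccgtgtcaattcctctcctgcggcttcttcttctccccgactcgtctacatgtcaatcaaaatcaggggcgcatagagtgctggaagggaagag
egl-27: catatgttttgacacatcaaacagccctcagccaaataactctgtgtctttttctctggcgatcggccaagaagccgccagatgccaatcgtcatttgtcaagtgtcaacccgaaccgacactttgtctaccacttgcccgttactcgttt
In the M106.2 window a GAGAGA and an ACGCAG share bases, which these motifs can do. The Y105C5A.1 window holds 3 marked GAGAGA matches and 1 TGACAG, and the cwn-2 window holds 2 TGACAG matches. The windows of unc-62 and egl-27, both from strong peaks, hold no match to any of the 3.

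The strongest distal peak lay far upstream of unc-62, which encodes a homeodomain protein of the MEIS class that works with Hox proteins. The signal, the authors' enrichment value with no unit, was 310 in the IDR set, 8.66 in replicate 1's list and 298 in replicate 2's, and these scales are not shared between lists. The peak ranked 2 of all 2511 peaks, 47 in replicate 1 and 2 in replicate 2, and its summit stood 5997 bp upstream of the start. The next peak, 1319 bp upstream of M106.2, had a signal of 264 and was the top-ranked region of replicate 1 (19.1) and rank 3 of replicate 2 (246). These peaks stood far above the rest of the class, in which the next had 149 and the median was 35.6.

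The peak of 149 lay 1516 bp upstream of ttr-17, a transthyretin-related gene, and had a signal of 150 in replicate 2. The fourth, 3715 bp downstream of the start of pigx-1, had 144 in the IDR set and 142 in replicate 2. Replicate 1's list held no region at either. The peak 3041 bp upstream of sma-9, a zinc finger protein of the Schnurri family that acts in BMP signalling, had 138 in the IDR set, 6.69 in replicate 1 and 131 in replicate 2. A second distal peak at sma-9, with a signal of 76.5, overlapped the same replicate regions, so the replicates do not separate them.

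Further down the list, the peak 11597 bp upstream of egl-27, which encodes a chromatin protein of the MTA family, had a signal of 115 and no replicate 1 region. Also at 115 was a peak 1367 bp upstream of ret-1, a reticulon gene, which was ranked 237 in replicate 1. The peak beside cwn-2, a Wnt ligand gene, lay 2435 bp upstream and had 110 in the IDR set, 7.25 in replicate 1 and 101 in replicate 2. A peak of 108 lay 2177 bp upstream of pat-9, a zinc finger gene needed in body wall muscle, and was ranked 252 in replicate 1. A peak of 107 lay 2109 bp upstream of sup-26, which encodes an RNA-binding protein.

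The nearest start did not always belong to the better known neighbour. The peak of signal 113 nearest to the ligand-gated channel gene lgc-12 lay between that gene and the Hox gene ceh-13. The peak of 110 nearest to csa-1 lay in the gap that ends at cam-1, a receptor tyrosine kinase gene of the Wnt pathway. The remaining peaks of the strongest 15 were nearest to C04C11.25 (117), Y105C5A.1 (114) and F45H10.5 (104). Replicate 1's list overlapped 10 of the strongest 15 distal peaks and 35 of the strongest 50. It overlapped 30.7% of IDR peaks of all strengths, and 48.9% of distal and 42.3% of promoter peaks at ranks 1 to 837. The plot of the strongest distal peaks shows the 5 that it lacked.

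**Figure D1:**
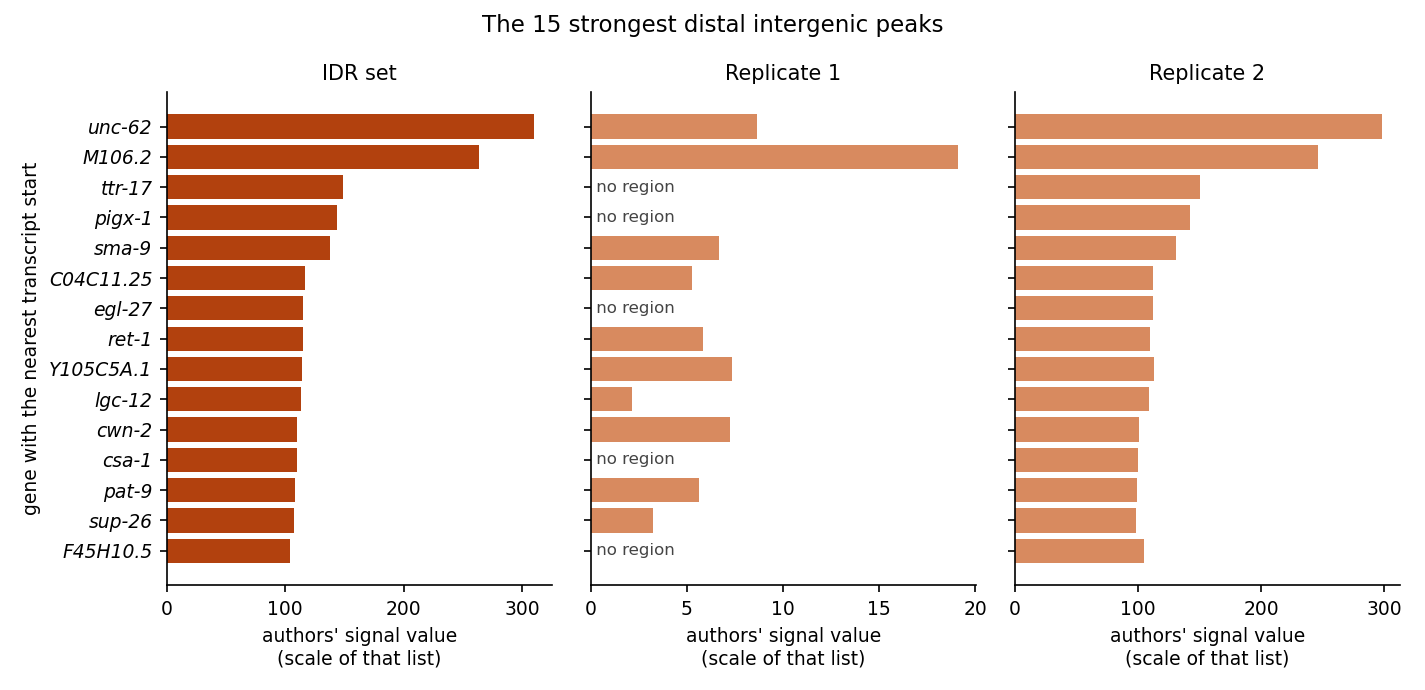
Signal of the 15 strongest distal peaks in the IDR set, in replicate 1's list and in replicate 2's list. Bars run from 0 on the scale of each list, in the authors' units, and genes are ordered by the IDR signal. The unc-62 and M106.2 peaks (310 and 264) stand apart from the other 13 (104 to 149), and 5 peaks have no region in replicate 1.

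Distal sequence as defined here made up 19.3 Mb, or 19.3% of the genome, so distal peaks numbered 33.1 per Mb. Promoter windows held 46.5 peaks per Mb and introns 17.4 per Mb. The distal share was therefore 1.32 times the share of bases, against 1.86 times for promoter windows and 0.693 times for introns. Lower ranks of the pooled list held smaller shares of distal summits. The share was 25.4% at ranks 1 to 2511, 23.2% (22.3 to 24.2) at ranks 2512 to 10000, 20.7% (19.9 to 21.5) at ranks 10001 to 20000 and 19.2% (18.5 to 20) at ranks 20001 to 30000. The last of these was close to the 19.3% of bases. At the edge of the promoter window, the 24 distal peaks from 1001 to 1100 bp upstream of a start had a median signal of 39.6 (24.5 to 93.4), and the 47 promoter peaks from 901 to 1000 bp had a median of 37.2 (25.2 to 78.1).

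By the IDR signal, a larger share of distal than of promoter peaks stood among the strongest. Of the 100 strongest peaks of all classes, 35 were distal, which is 5.48% of distal peaks and 2.86% of promoter peaks (difference 2.62 percentage points, 0.755 to 4.81). Of the 500 strongest, 155 were distal, which is 24.3% of distal peaks and 17.4% of promoter peaks (difference 6.87 points, 3.0 to 10.9). The difference from intronic peaks was 3.87 points with an interval that holds 0 (−1.12 to 8.73). This order was not seen in replicate 1 taken alone. Among the 2511 strongest regions of replicate 1, the 100 strongest held 3.94% of distal and 5.01% of promoter regions (difference −1.07 points, −3.19 to 1.29), and the 500 strongest held 21.2% of distal and 23.9% of promoter regions (−2.74 points, −7.10 to 1.80). Among those of replicate 2 the differences were 2.44 points (0.583 to 4.62) and 5.64 points (1.82 to 9.61). Replicate 2 is not a separate check on the IDR order. It had a region at 2510 of the 2511 peaks in that set, and replicate 1 had one at 770. Typical peaks differed little, since the median signal was 35.6 (quartiles 28.3 and 49.2) in distal peaks, 34 (27.9 and 44.5) in promoter peaks and 35.1 in intronic peaks. The share above the median of the set was 52.6% in distal peaks and 47.7% in promoter peaks, a difference of 4.91 points (0.128 to 9.66) that is −0.280 (−5.62 to 5.04) among the 2511 strongest regions of replicate 1 alone and 3.01 (−1.75 to 7.75) among those of replicate 2 alone.

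Replicate 1's list overlapped 206 of the 639 distal peaks, or 32.2% (28.7 to 36), beside 30.7% of all IDR peaks. In promoter peaks the share was 30.0%, and the difference of 2.28 points had an interval that holds 0 (−2.10 to 6.76). Intronic peaks were at 32.1%. Replicate 2's list overlapped all 639, as it did 2510 of the 2511 IDR peaks of all classes. The overlap followed strength: it was 48.9% of distal peaks at ranks 1 to 837 of the set, 26.7% at ranks 838 to 1674 and 18.4% at ranks 1675 to 2511, against 42.3%, 28.3% and 20.7% of promoter peaks. The distal peaks that replicate 1 overlapped had a median signal of 43.3, and the 433 that it did not had 32.9.

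**Figure D2:**
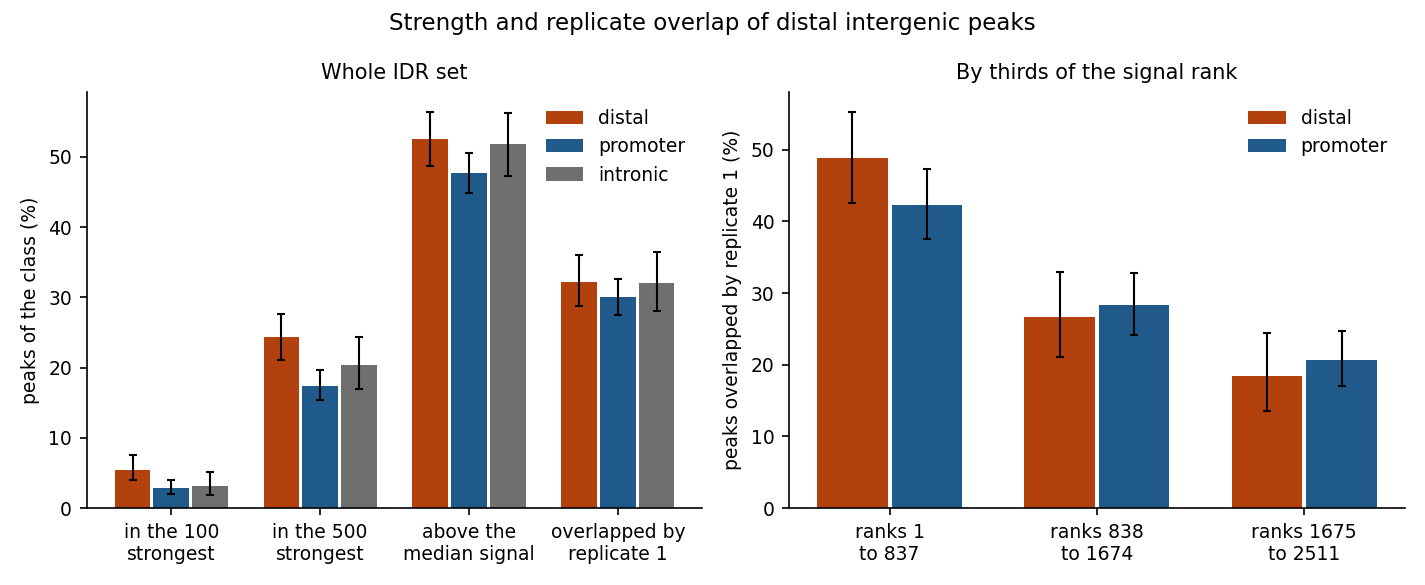
Left, share of distal, promoter and intronic IDR peaks among the 100 and the 500 strongest, above the median signal and overlapped by replicate 1. Right, the replicate 1 overlap of distal and promoter peaks by signal rank. Bars are shares in percent with 95% Wilson intervals. Distal peaks stand above promoter peaks among the 500 strongest (24.3% and 17.4%), and the overlap intervals of both classes cross in every rank range.

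Of the 206 distal peaks that replicate 1 overlapped, 12 met its top 100 regions, and 5 of these were also in the top 100 of replicate 2. The top 100 of replicate 1 were met by 33 of 367 such promoter peaks and 13 of 151 such intronic peaks. The median rank in replicate 1 was 1006 for distal, 874 for promoter and 1183 for intronic peaks. Besides M106.2 and unc-62, distal peaks in that top 100 were nearest to Y105C5A.1 (signal 114, rank 94 in replicate 1), C47A4.1 (101, rank 3), tbc-12 (87.1, rank 18) and F40H3.3 (83.2, rank 29). Some were weak in the IDR set. A peak whose summit lay within 200 bp of the microRNA gene mir-80 had a signal of 26.5 and IDR rank 2085, yet overlapped rank 67 of replicate 1. Near Y37A1B.7, 2 peaks with signals of 48.6 and 28.8 overlapped one region of rank 13 in replicate 1.

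The typical distal summit lay 2747 bp from the nearest protein-coding start (quartiles 1602 and 4491 bp), and the farthest lay 19776 bp away. Distances up to 2000 bp held 229 peaks (35.8%), against 27.4% of distal sequence, and distances over 10000 bp held 22 peaks (3.44%, 2.28 to 5.16), against 4.76% of distal sequence. Of the 639 summits, 549 (85.9%, 83.0 to 88.4) lay upstream of that nearest start, against 76.1% of distal bases. Gaps between genes that point away from each other, with both starts at the gap, held 274 peaks (42.9%) and 38.8% of distal sequence. Gaps between genes that point towards each other, with both 3′ ends at the gap, held 21 peaks (3.29%, 2.16 to 4.97), against 9.95% of distal sequence. The other 344 lay between genes in the same direction.

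The 639 peaks fell in 496 intergenic gaps, with a single peak in 395 gaps, 2 in 74 gaps and 3 or more in 27. The gap between snt-1, the synaptotagmin gene, and egl-27 held the most. Its 7 peaks in 18574 bp had signals of 28.8, 70.1, 115, 58.5, 60.7, 59.4 and 28.6 from left to right, and replicate 1 overlapped 3 of them but not the strongest. The 27973 bp gap between F57G12.1 and cab-1 held 6 weak peaks, of signals 25.7 to 35.5, none of which replicate 1 overlapped.

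The gap before unc-62 held 5 peaks in 10917 bp. The strong one described above was accompanied by peaks of 36.2, 36.4, 26.4 and 65.4, and replicate 1 overlapped 3 of the 5. None of the 5 held any of the 3 capitalised motifs within 100 bp of the summit. The gap between rho-1, which encodes a small GTPase of the cytoskeleton, and zip-7 also held 5 peaks, with signals of 26.7 to 63.6, and all 5 held GAGAGA. The gap between F54F12.1 and Y39E4B.6 held 4, led by a peak of 82.3. Its peaks of 53.2 and 32.8 overlap each other and met the same replicate 2 region, so they are not separate support. The Hox genes lin-39 and ceh-13 face each other's upstream side across 19027 bp with 4 distal peaks, of 49.4 and 29.6 nearer to lin-39 and of 57.3 and 27.4 nearer to ceh-13, and the stronger peak of each pair was overlapped by replicate 1. This last gap was named for the Hox list after its values were seen.

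Of 19973 protein-coding genes, 552 (2.76%) had the start nearest to a distal peak. Genes with long gaps around them own more distal sequence, so each list of genes below is given with the share of distal bases that lie nearest to its members. Hox genes and their TALE-class cofactors had 3 of 11 genes and 7 peaks, which is 1.10% of distal peaks (0.532 to 2.24) and 0.342% of distal bases. The 3 genes were unc-62, ceh-13 and lin-39. Of the 7 peaks, 3 lay in the gap before unc-62 and 4 in the gap between lin-39 and ceh-13. The interval treats such clustered peaks as separate draws. Homeodomain genes as a whole had 8 of 99 genes and 13 peaks (2.03%, 1.19 to 3.45), against 1.47% of bases, so the interval holds the base share. The other homeodomain genes, with 1 or 2 peaks each, included vab-15 (35.4), ceh-58 (33.2) and ceh-34 (30.1).

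Signalling and guidance genes came next. Axon guidance genes had 8 of 30 genes and 11 peaks (1.72%, 0.964 to 3.06), against 0.451% of bases. The strongest lay 1069 bp upstream of unc-33, which encodes a CRMP-family regulator of the axonal cytoskeleton (58.9), 1345 bp upstream of unc-51, a kinase gene for axon growth and autophagy (44.4), and 4126 bp upstream of plx-2, a plexin gene for semaphorin signals (42.8). Only the unc-33 and plx-2 peaks of these 3 were overlapped by replicate 1. Wnt pathway genes had 5 of 18 genes and 5 peaks (0.782%, 0.335 to 1.82), against 0.227% of bases. After cwn-2 the strongest were at pop-1, the TCF factor (43.8), and wrm-1, a β-catenin (43.7), and replicate 1 overlapped only the cwn-2 peak of the 5. BMP pathway genes had sma-9 and daf-4, a receptor of the TGF-β family, whose peak of 56.9 lay 3680 bp upstream. These were 2 of 16 genes with 3 peaks (0.469%, 0.160 to 1.37), against 0.138% of bases, and replicate 1 overlapped all 3. The 2 sma-9 peaks overlap each other and met the same replicate regions, so they are not separate support. A list with 2 distal peaks has an interval of 0.0859 to 1.13, which holds 0.138%.

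Body wall muscle genes had 8 of 39 genes and 8 peaks (1.25%, 0.636 to 2.45), against 0.265% of bases. Besides pat-9 they were ttn-1, which encodes titin (67.3, 1623 bp upstream), tni-1, a troponin I (36.9, 2179 bp upstream), and deb-1, unc-87, atn-1, unc-60 and myo-3, genes of the sarcomere or its actin, with signals of 26.2 to 31.9. Replicate 1 overlapped 3 of the 8. Of the 15 genes listed for remodelling of the D neurons, hbl-1 and lin-14 were nearest to a distal peak, with 1 peak each (0.313%, 0.0859 to 1.13), against 0.182% of bases. These are the hunchback-related factor and the timing factor that also make up the heterochronic count of 2 of 8 genes, against 0.111% of bases, and the interval holds both base shares. The hbl-1 peak had 43.0 at 3760 bp upstream, the lin-14 peak 24.5 at 1843 bp upstream, and replicate 1 overlapped neither.

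Nuclear hormone receptor genes had 10 of 274 genes and 13 peaks (2.03%), against 1.94% of bases. Their strongest peaks were at nhr-1 (70.9), nhr-17 (69.7) and nhr-20 (55.7), and only that at nhr-17 was overlapped by replicate 1. The bHLH list had 5 of 41 genes and 5 peaks, at hif-1, the hypoxia factor (73.3), ref-1 (38.9), hlh-10 (32.7), sbp-1 and mml-1 (0.782%, 0.335 to 1.82), against 0.521% of bases. The forkhead, T-box, GATA and Sox list had elt-1, the epidermal GATA factor (33.7 and 25.7), and fkh-2 (33.6), out of 53 genes (0.469%, 0.160 to 1.37), against 0.702% of bases. For both lists the interval of the peak share holds the share of bases.

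Effector families with many genes had few distal peaks. Chemoreceptor genes had 2 peaks, at srsx-9 (29.6) and srab-24 (23.8), which is 0.313% of distal peaks (0.0859 to 1.13), against 4.35% of distal bases for 1303 genes. Neuropeptide genes had 2 peaks, at flp-19 (55.5) and flp-15 (29.6), or 0.313%, against 1.46% of bases for 140 genes. Cuticle collagens had 1 peak, at col-105 (31.6), and cytosolic ribosomal proteins had 1, at rpl-21 (24.2). The chemoreceptor and neuropeptide intervals lie below the share of bases, and those of the collagens and ribosomal proteins (0.0276 to 0.881 for both) hold it, at 0.603% and 0.187% of bases.

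**Figure D3:**
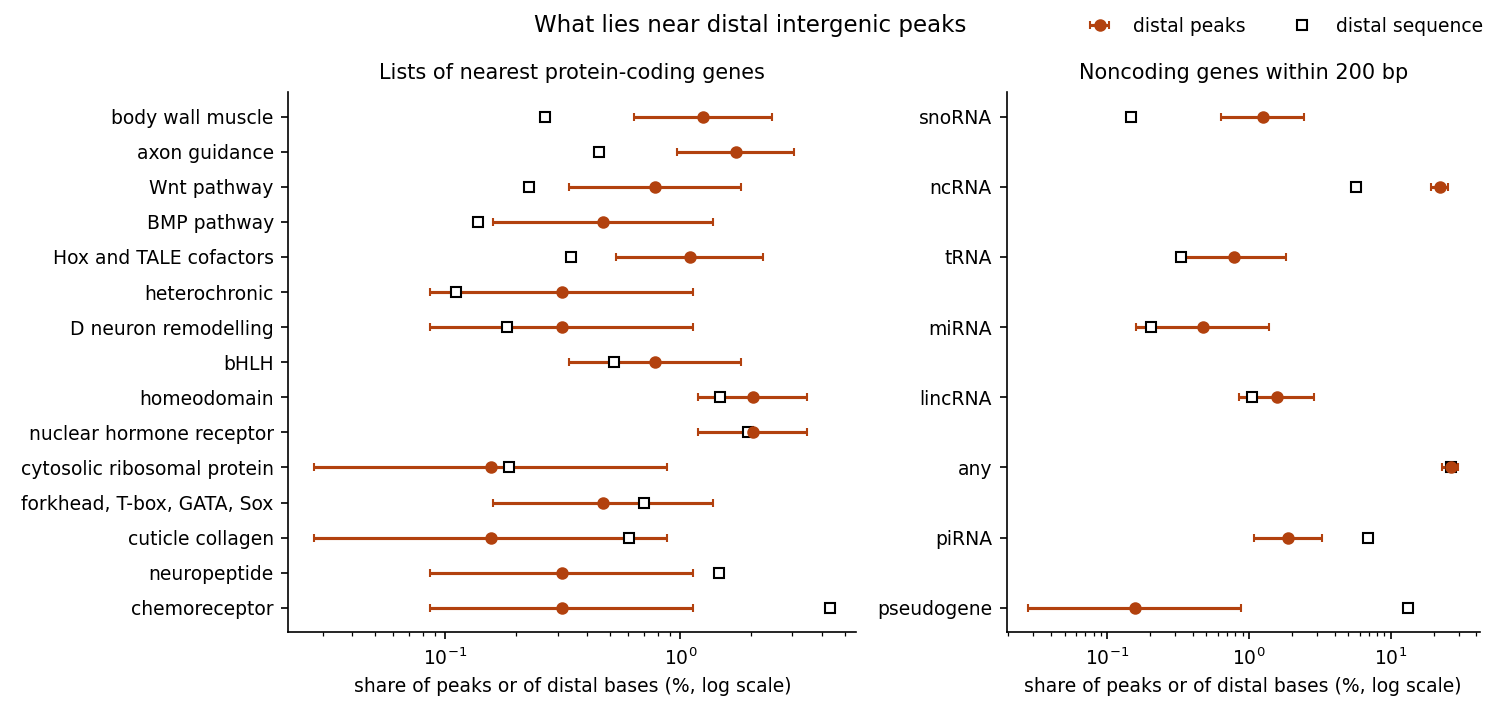
Left, share of the 639 distal peaks whose nearest start belongs to each gene list, with 95% Wilson intervals, and the share of distal bases nearest to the same genes (open squares). Right, the same for noncoding genes and pseudogenes within 200 bp of the summit. Both axes are in percent on a log scale. Body wall muscle (1.25% of peaks, 0.265% of bases) and chemoreceptor genes (0.313% and 4.35%) mark the ends of the left panel.

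The location rule used protein-coding genes only, so noncoding genes could lie at distal summits. Within 200 bp of a noncoding gene or pseudogene of any kind lay 168 summits (26.3%, 23 to 29.8), which equals the 26.3% of distal sequence that lies so close. The kinds differed. Genes annotated only as ncRNA, short transcripts with a median length of 140 bp, were near 141 summits (22.1%, 19.0 to 25.4), against 5.63% of distal sequence, and 80 of these summits lay inside the annotated span. Pseudogenes were near 1 summit (0.156%, 0.0276 to 0.881), against 13.2% of distal sequence. The genes of piRNAs, small RNAs of the germ line, were near 12 summits (1.88%, 1.08 to 3.25), against 6.83%.

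The ncRNA share was not particular to distal peaks. It was 15.3% in promoter peaks, against 4.0% of promoter sequence, and 21.4% in intronic peaks, against 3.37% of intronic sequence. The low pseudogene and piRNA shares were not particular to them either. Pseudogenes were near 0.163% of promoter summits, against 2.15% of sequence, and near 0 of 471 intronic summits, against 0.720%. The piRNA shares were 0.816%, against 2.26%, in promoter peaks and 1.06%, against 3.16%, in intronic peaks. In the pooled list the ncRNA share of distal summits was 22.1% at ranks 1 to 2511, 18.4% at ranks 2512 to 10000, 10.6% at ranks 10001 to 20000 and 8.16% at ranks 20001 to 30000. The pseudogene share was 0.156%, 1.21%, 4.36% and 5.87% over the same ranges. Among all distal regions of replicate 1 the ncRNA share was 13.7% and the pseudogene share 5.08%.

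Noncoding genes of other annotated kinds were near few summits. The genes of snoRNAs, which guide RNA modification, were near 8 summits (1.25%, 0.636 to 2.45), against 0.148% of distal sequence, with signals of 34.7 to 61.6. Transfer RNA genes were near 5 summits (0.782%, 0.335 to 1.82), against 0.330%, with signals of 24.8 to 43.2. The genes of lincRNAs, which are long RNAs, were near 10 summits (1.56%, 0.852 to 2.86), against 1.05%, with signals of 25.2 to 79.8. MicroRNA genes were near 3 summits (0.469%, 0.160 to 1.37), against 0.202%, with signals of 26.5 to 40.8. Distal peaks near any noncoding gene and the other 471 distal peaks had median signals of 36.2 and 35.3, and replicate 1 overlapped 32.7% and 32.1% of them.

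Distal summits differed in base composition from the sequence around them. Over the 201 bp at the summit the GC content averaged 44.9% ± 5.90 (SD over 639 windows), against 34.1% ± 6.92 in windows 1000 bp away on both sides. Promoter summits averaged 44.5%, a difference of 0.430 points with an interval that holds 0 (−0.155 to 1.01). Repeat-masked bases made up 14.4% of distal summit windows, against 40.1% of their flanks and 40.2% of all distal sequence. In promoter summit windows they made up 19.2%, so distal summits held fewer by 4.78 points (difference −4.78, −6.19 to −3.38). Intronic summit windows were at 13.6%, and the difference of 0.800 points has an interval that holds 0 (−0.806 to 2.41). The replicate lists were not filtered here for repeats, and how the authors' alignment treated reads from repeats is not known.

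Each motif below was searched as its exact letters on both strands within 100 bp of the summit, and matches of different motifs may share bases. The GA repeat GAGAGA was present at 362 distal summits (56.7%, 52.8 to 60.4), against 13.8% of the 1278 flanking windows of the same length. It was present at 49.6% of promoter summits, so distal summits were higher by 7.02 points (2.24 to 11.7), and at 53.5% of intronic summits. The difference from promoter summits was 10.1 points (2.05 to 17.8) at ranks 1 to 837 and 2.23 points (−6.14 to 10.6) at ranks 1675 to 2511. It was 2.47 points (−2.92 to 7.80) with promoter windows of 2000 bp upstream and 500 bp downstream, and 3.66 points (−4.83 to 12) among peaks overlapped by replicate 1. The motif ACGCAG, also taken from earlier results on these peaks, was present at 165 distal summits (25.8%, 22.6 to 29.4), against 3.36% of flanks. It was at 29.9% of promoter summits, a difference of −4.06 points (−8.23 to 0.269).

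Both motifs were concentrated at the summit. Between 0 and 50 bp on the right of it, GAGAGA was found in 24.6% of distal peaks, and between 450 and 500 bp on the same side in 2.35%. ACGCAG was found in 11.0% within 50 bp on the left of the summit and in 1.72% between 450 and 500 bp on that side. In all, 402 distal peaks (62.9%) held at least 1 of these motifs, 125 (19.6%) held both and 237 (37.1%) held neither. Distal peaks with GAGAGA and those without it were overlapped by replicate 1 in 32.3% and 32.1% of cases (difference 0.190 points, −7.15 to 7.41).

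**Figure D4:**
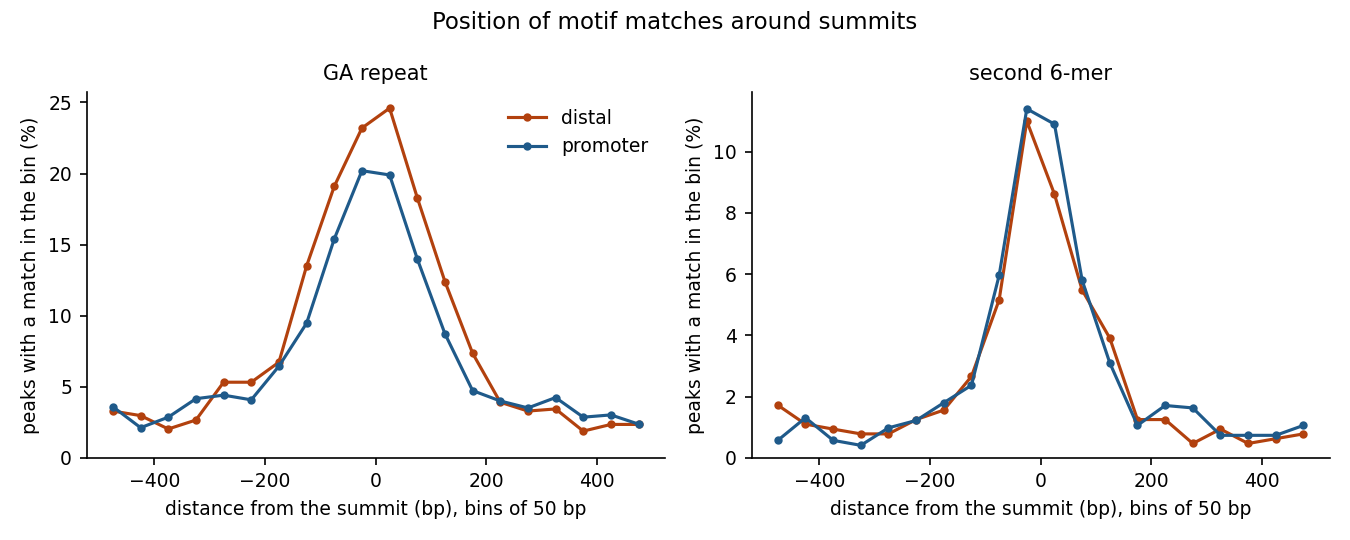
Share of distal and promoter peaks with a match to GAGAGA (left, GA repeat) and ACGCAG (right, second 6-mer) in bins of 50 bp from 500 bp left to 500 bp right of the summit. Both motifs are most frequent next to the summit. In the bin just right of it, GAGAGA is in 24.6% of distal and 19.9% of promoter peaks.

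TGACAG, the letters recognised by homeodomain proteins of the MEIS class such as UNC-62, separated distal from promoter peaks more in proportion than GAGAGA did. TGACAG was present at 121 distal summits (18.9%, 16.1 to 22.2), against 6.73% of flanks, and at 11.8% of promoter summits (difference 7.18 points, 3.74 to 10.8). The interval held 0 for the wider promoter window (3.38 points, −0.381 to 7.63) and among the stronger 1255 peaks (4.70, −0.324 to 10). It also held 0 among peaks overlapped by replicate 1 (4.28, −1.86 to 11) and among the strongest regions of replicate 1 alone (0.795, −2.52 to 4.35). Intronic summits stood at 18.9%, which differs from distal summits by 0.0399 points (−4.69 to 4.64). Among distal peaks, those with TGACAG were in the 500 strongest in 33.1% of cases, and those without it in 22.2% (difference 10.9 points, 2.24 to 20.3). Replicate 1 overlapped 31.4% and 32.4% of the same peaks.

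These motif differences were smaller in replicate 1 taken alone. In its whole list, TGACAG was at 11.0% of distal, 10.3% of promoter and 9.0% of intronic summits, and GAGAGA at 27.8% of distal and 24.9% of promoter summits. Among its 2511 strongest regions, the distal minus promoter difference was 0.795 points (−2.52 to 4.35) for TGACAG and 2.84 points (−1.92 to 7.72) for GAGAGA. Also there the excess over flanks was 16.6 points for GAGAGA, against 42.8 points in the IDR set, 8.16 points for ACGCAG, against 22.5, and 3.85 points (0.800 to 7.21) for TGACAG, against 12.2. In the pooled list the shares at distal summits were lower at weaker ranks. GAGAGA stood at 56.7%, 35.4%, 17.2% and 14.6% over the 4 rank ranges given above, and TGACAG at 18.9%, 13.2%, 8.81% and 7.22%.

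The nuclear receptor half-site AGGTCA was not more frequent at distal summits than beside them. It was present at 39 (6.10%, 4.50 to 8.23), against 6.18% of flanks, a difference of −0.0782 points (−2.25 to 2.36), and at 6.37% of promoter summits. The longer form AAGGTCA was at 5 distal summits, against 1.96% of flanking windows. Distal peaks with AGGTCA and those without it had median signals of 35.9 and 35.5. Over the 4 rank ranges of the pooled list AGGTCA was at 6.10%, 7.24%, 6.0% and 5.20% of distal summits. A search for exact letters in this window says nothing about sites of other spelling.

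Other letters differed as well. The E-box CAGCTG was at 8.61% of distal summits, against 3.29% of flanks (difference 5.32 points, 3.08 to 7.89), and at 8.73% of promoter summits. The letters TGATAA, bound by GATA-family factors, were less frequent at summits, with 12.1% against 19.2% of flanks (difference −7.20 points, −10.4 to −3.76). Promoter summits (10.4%, against 18.1% of their flanks) and intronic summits (12.1%, against 19.3%) were likewise lower. TAATCC, the core bound by paired-like factors of the UNC-30 kind, was at 5.48% of distal summits, against 6.65% of flanks and 3.02% of promoter summits (distal minus promoter 2.46 points, 0.578 to 4.66). Intronic summits had it at 4.25%, and the distal minus intronic difference of 1.23 points has an interval that holds 0 (−1.46 to 3.76). GGTTCGA, a box of transfer RNA genes, was at 9 distal summits, 1.41%, against 0.782% of flanks, and the piRNA upstream motif CTGTTTCA was at 3, or 0.469%, against 2.43%. Summits are richer in GC than their flanks, and the part of base composition in these differences was not tested.

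**Figure D5:**
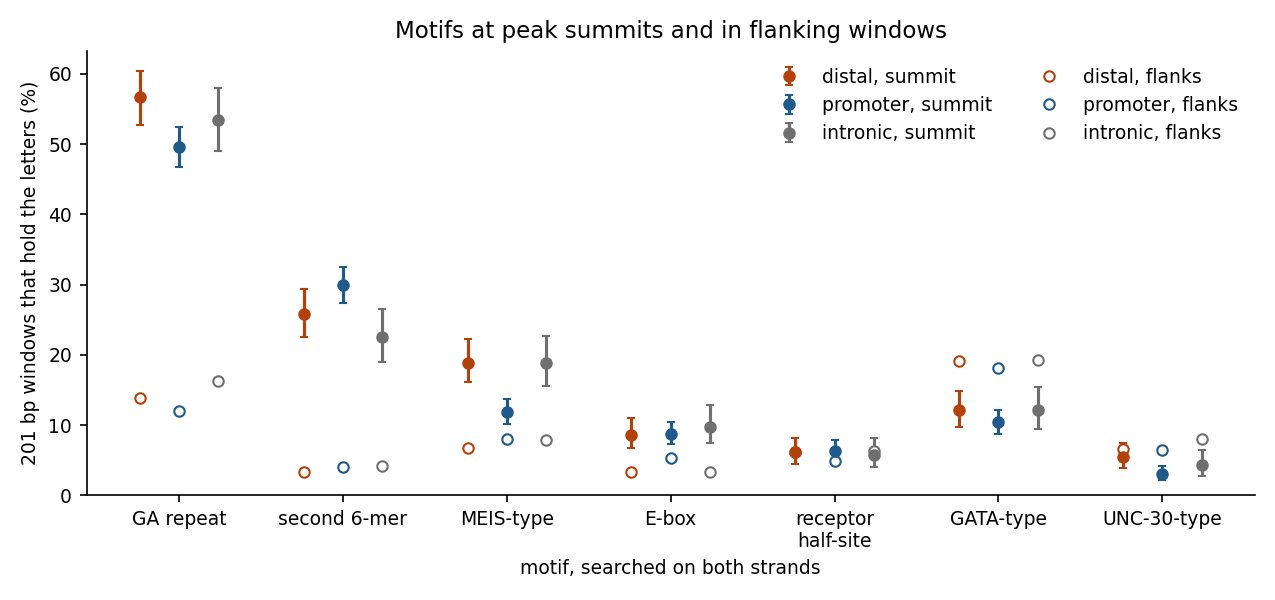
Share of 201 bp windows that hold each motif at summits (filled points, 95% Wilson intervals) and in windows 1000 bp away (open points), for distal, promoter and intronic peaks. From left to right the motifs are GAGAGA (GA repeat), ACGCAG (second 6-mer), TGACAG (MEIS-type), CAGCTG (E-box), AGGTCA (receptor half-site), TGATAA (a site of the GATA kind) and TAATCC (UNC-30-type). In this set TGACAG is at 18.9% of both distal and intronic summits and at 11.8% of promoter summits, and AGGTCA lies at 6.10% of distal summits and 6.18% of their flanks.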

How the data were processed

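UNC-55 ChIP-seq was deposited as peak lists in ce11 coordinates for 2 replicates, for their pooled alignments and as an IDR set. The deposited signal value is the enrichment that the authors' peak caller gave each region against a control, not scaled between lists, and was used within each list only, for description, ranks and filters. The deposited −log10 q-value was 4.02 for every IDR peak and was not used for ranking. Per the descriptions deposited with the lists, IDR was run by the authors. Neither peak caller nor aligner is named in the sources used here. The control library and the ce10 lists (2475 IDR peaks) were not analysed here, and 14 mitochondrial regions of replicate 1 were left out.

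Summits, given by the authors, were placed on WBcel235 with the Ensembl 115 annotation (Python 3.11.15, numpy 2.4.6, pandas 2.3.3, scipy 1.17.1). Overlap meant at least 1 bp. Shares have 95% Wilson intervals and differences of shares Newcombe intervals, while GC and masked-base differences have normal intervals. No p-values were computed, since 1 group has no contrast. Nothing here states separate cultures beyond the label of biological replicates. The intervals and the location rule were tested on simulated data. Genes were named if nearest to or flanking the 15 strongest distal peaks, nearest to the 3 strongest of each of 15 gene lists, or bounding the 5 gaps with the most distal peaks, and further members of lists were named after their values were seen. Members, lists and the 10 motifs were chosen with earlier results of these data known. Near-identical gene copies were kept apart, and a peak is assigned by distance alone. Alternatives covered summit position, window sizes, rank and overlap limits, flanks, spacing and each replicate alone.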

Additional observations from a re-analysis of the deposited data

How the results depend on the processing

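Each of 18 values was recomputed under up to 13 alternatives, and 137 of 163 recomputed values were counted as unchanged. A share was so counted when it stayed within the interval of the main value. A difference was so counted when it kept its direction and its interval still held, or still excluded, 0. A change of sign was also counted as unchanged when both intervals held 0. The count includes alternatives that could change little. Summit and midpoint coincide in peaks of 360 bp, which were 2398 of the 2511, and the spacing rule took out 7 distal peaks. A difference could also shrink and be counted as unchanged, as GAGAGA over flanks did, from 42.8 to 16.6 points in replicate 1's list alone. The distal share was 16.4% with windows of 2000 bp upstream and 500 bp downstream, 32.0% with 500 and 100 bp, and 15.9% when noncoding genes and pseudogenes were excluded too, all by construction of the rule. It was 21.3% and 25.8% with 1 replicate left out. Under the same 3 rules and among the stronger 1255 IDR peaks, the distal minus promoter difference in the share above the median signal was 5.03, 6.81, 3.96 and 5.28 points, and only the second of these intervals excludes 0. It was −0.280 to 3.01 with 1 replicate left out. Among the 100 and the 500 strongest the same difference was −1.07 to 2.44 and −2.74 to 5.64 points with 1 replicate left out. It was negative in both cases in replicate 1's list alone, and its interval excluded 0 under the other alternatives run. Replicate 2 had a region at nearly all IDR peaks, so leaving out replicate 1 is not a separate check on them. The ncRNA share was 14.3% to 22.1% and the pseudogene share 0.463% to 5.07% with 1 replicate left out, the values far from the main ones coming from replicate 1's list alone.

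For distal minus promoter motif shares, the cause of each change was not tested. GAGAGA fell to 2.47 points with the wider window and 3.66 among IDR peaks overlapped by replicate 1, and was 2.84 to 6.75 with 1 replicate left out. TGACAG fell to 3.38 points with the wider window, 4.70 among the stronger peaks and 4.28 among peaks overlapped by replicate 1, and was 0.795 to 7.08 with 1 replicate left out. All of these intervals hold 0 except those without replicate 1. ACGCAG was −5.11 points with the wider window, −5.18 with the narrower one and −7.51 among the stronger peaks, with intervals that exclude 0. It was −5.98 to −0.957 with 1 replicate left out. The ACGCAG interval held 0 with noncoding genes and pseudogenes excluded too (−0.554, −5.55 to 4.72). It also held 0 among peaks overlapped by replicate 1 (−5.27, −12.9 to 2.80) and within 50 bp of the summit (−3.05, −6.68 to 0.777). The GC difference was 1.18 points with the narrower window and −1.21 within 50 bp of the summit, opposite in sign to the main 0.430. Overlap with replicate 1 could not be given with a replicate left out, nor the noncoding shares with noncoding genes excluded. No paired analysis was possible because the samples form 1 group. Depth limits what can be said of peaks missing from replicate 1, since neither library's depth is known.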

Other observations

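Distal peaks were unevenly spread over chromosomes. They numbered 50 per Mb of distal sequence on chromosome I (106 peaks), 42.1 on III (92), 34.7 on II (92), 32.7 on X (151), 29.2 on IV (117) and 21.7 on V (81). As a share of each chromosome's IDR peaks they were highest on IV (31.1%, 26.6 to 36) and X (28.7%, 25 to 32.7), where distal sequence makes up 22.9% and 26% of the bases, and between 22.6% and 24% on the others.

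All 6-mers were also counted at distal and promoter summits, with a reverse complement counted as the same 6-mer. Those with the largest excess over promoter summits were TGATGA (29.9%, against 18% of promoter summits and 13.8% of distal flanks) and GATTGA (26.1%, against 14.3% and 11.7%). Lower at distal than at promoter summits were AAAAAT (28.6%, against 43.5%), AAAATC (14.2%, against 27.6%) and AAAAAC (19.4%, against 29.1%). These were also below their shares of distal flanks, which ran from 41.9% to 76.8%. Of those rich in G and C, ACGCGC (5.16%, against 15.8%), GAGCGC (6.73%, against 17.2%) and CGAGAC (10.2%, against 19.9%) were lower than at promoter summits. They were still above their shares of distal flanks, which ran from 1.96% to 3.52%. The 7-mer TGATTGA was chosen after these counts were seen. It stood at 13.3% of distal summits (10.9 to 16.2), 7.02% of promoter summits and 15.1% of intronic summits, against 4.54% of distal flanks. The distal minus promoter difference was 6.28 points (3.40 to 9.42), which is a description because the letters were picked from the same peaks.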
